A study of Mus musculus with 4 samples.

Results

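Macrophages are the resident immune cells of the fetal kidney, and 38 genes that mark or serve them and other leukocytes were followed here between control kidneys and kidneys labelled Sall1 knockout. The genes were chosen by name, and the array probes by a match of the accession in the scanner files to the gene. A probe matched for 37 of the 38 genes, 48 probes in all, and no probe matched for Cd68. Of these genes 31 were well above background and tested, among 25081 genes and unnamed sequences tested in all.

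Kidneys were taken from mouse embryos at E13.5 of a hybrid background of 129 and C57BL/6, 24 hours after tamoxifen at E12.5, which both groups had received per the labels. The control group had 2 samples whose titles name flox, and the Sall1 knockout group had 2 samples whose titles name CreER KO. CreER is a Cre recombinase that enters the nucleus when tamoxifen binds it, and the labels call the line Sall1CreER without saying in which cells CreER was active. Only the knockout titles name CreER, so an effect of CreER cannot be told apart from that of Sall1. Litters are not given, nor whether each sample came from 1 embryo or several, so the p-values reflect only how far these arrays vary, which may be technical. Total RNA was hybridised to 4 Agilent arrays of 1 colour on 1 slide, and between 60.6% and 64.2% of spots were well above background. Sall1 itself was 1.68-fold lower in the knockout (log2 difference -0.75 ± 0.056, SE), with log2 signals of 1.79 and 1.81 in the controls and 1.03 and 1.07 in the knockouts. Whether its probe lies in the deleted part is not given. Of 15 nephron progenitor genes, which define this tissue, 15 were well above background on all 4 arrays.

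As background, tissue macrophages of the embryo come from yolk sac and fetal liver progenitors, and they need the growth factor receptor Csf1r, which binds the ligands Csf1 and Il34. The transcription factor PU.1, made from Spi1, sets up their gene programme and binds purine-rich sites with a GGAA core. In the growing kidney macrophages lie in the stroma and along vessels and clear dying cells, using Fc receptors, complement C1q and scavenger receptors, several of which signal through the adaptors Tyrobp and Fcer1g. Sall1, apart from its part in nephron progenitors, is known among macrophages as a gene of microglia, the macrophages of the brain.

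Promoter sequence was matched by symbol for 27 of the 38 genes in RefSeq's table of build GRCm38.p6. The 250 bases upstream of the first listed start are shown, 5′ to 3′ on the strand of the gene, for the 4 genes of this set with the smallest unadjusted p that have an entry, and for C1qc, which holds both motifs searched in overlap. Capitals mark GAGGAA or GGAAGT on either strand, a pair of PU.1-type motifs that share GGAA and can overlap as GAGGAAGT.
Fcgr3 (chr1:171059404-171059653, minus strand): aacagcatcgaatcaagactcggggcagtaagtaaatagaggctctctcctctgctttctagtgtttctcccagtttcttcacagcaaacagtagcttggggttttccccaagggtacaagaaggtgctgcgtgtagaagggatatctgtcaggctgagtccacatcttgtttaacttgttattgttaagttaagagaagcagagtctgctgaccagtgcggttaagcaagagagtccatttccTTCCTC
Cx3cr1 (chr9:120068297-120068546, minus strand): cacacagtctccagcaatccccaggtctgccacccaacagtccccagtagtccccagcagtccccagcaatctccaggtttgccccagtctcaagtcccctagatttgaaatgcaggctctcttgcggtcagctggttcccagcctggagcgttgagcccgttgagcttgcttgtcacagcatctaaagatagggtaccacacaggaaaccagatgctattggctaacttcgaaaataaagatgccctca
Aif1 (chr17:35176053-35176302, minus strand): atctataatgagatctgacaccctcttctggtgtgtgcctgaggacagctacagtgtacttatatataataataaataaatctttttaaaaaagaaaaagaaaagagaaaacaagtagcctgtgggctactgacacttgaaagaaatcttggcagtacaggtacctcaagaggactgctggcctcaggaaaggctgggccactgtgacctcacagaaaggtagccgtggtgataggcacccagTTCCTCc
Trem2 (chr17:48346151-48346400, plus strand): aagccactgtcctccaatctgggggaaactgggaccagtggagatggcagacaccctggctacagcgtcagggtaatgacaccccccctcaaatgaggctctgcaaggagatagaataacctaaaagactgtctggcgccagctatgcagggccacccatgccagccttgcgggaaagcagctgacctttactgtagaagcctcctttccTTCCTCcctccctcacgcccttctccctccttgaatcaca
C1qc (chr4:136892915-136893164, minus strand): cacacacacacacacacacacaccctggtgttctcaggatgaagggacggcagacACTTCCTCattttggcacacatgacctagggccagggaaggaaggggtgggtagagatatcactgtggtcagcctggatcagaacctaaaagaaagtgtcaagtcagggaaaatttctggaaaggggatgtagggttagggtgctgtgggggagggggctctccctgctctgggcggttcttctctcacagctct
GAGGAA stood in 16 of the 27 promoters (59.3%) and in 23.1% of all 27025 promoters in the table. GGAAGT stood in 12 of the 27 (44.4%) and in 20% of all promoters. Either motif was found in 20 of the 27 (74.1%) against 36.8% of all, and the overlapping GAGGAAGT in C1qc and Pf4 alone among the 27 (7.41% against 2.44%). Neither motif was found in this window of Cx3cr1. These are matches of letters, given as a description.

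Nearly all of the measured macrophage genes had higher signals in the knockout kidneys, each by a modest amount. Log2 signals, here always relative to the 75th percentile of the array, gave a median difference between knockout and control of 0.41 over the 31 tested genes, while the median over all features tested was -0.013. The difference was above 0 for 29 genes and below 0 for Maf and Itgam, and it ran from -0.076 for Itgam to 0.76 for Lyz2. Both knockout arrays were above both control arrays for 26 of the 31 genes, against 21.5% of all features tested, and both were below for Itgam, against 27.7% of all features. Groups overlapped for Maf, Lyve1, Cd14 and Lyz2. In bulk tissue, more cells of a type and more RNA per cell cannot be told apart.

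No single gene of the set passed over all features tested. Limma with Benjamini-Hochberg adjustment called 0 of the 31 genes at an adjusted p under 0.05, as it called 0 of all features in either direction (0% higher and 0% lower), and the adjusted p of the 31 genes ran from 0.239 for Fcgr3 to 0.904 for Cd14. By an unadjusted p under 0.05, 13 genes were higher and 0 lower, against 6.77% of all features higher and 5.93% lower. With a variance prior that follows the signal level, 1 of the 31 genes was called higher, Cx3cr1 (adjusted p = 0.0363), against 0.546% of all features, and normexp background correction called 0 (0.0758% of all features higher and 0.0877% lower). All 31 tested genes were well above background on all 4 arrays, so none entered through a single group.

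A difference of at least 1.5-fold without overlap was reached by 7 genes, Trem2, Adgre1, Cx3cr1, Mrc1, Ctss, F13a1 and Cd52, against 2.48% of all features. In the other direction it was reached by 0, against 1.06%. Cx3cr1 stood just inside this limit, with a log2 difference of 0.59, and Fcgr3 just outside, with 0.57. The count of 7 was 0 with normexp background correction and 3 with each array centred on its median. Normexp adds an offset of 50, which narrows fold differences of dim genes. Median centring lowered the median difference to 0.38 for the 31 genes and to -0.051 for all features. The count of 7 also depended on single arrays. It was 11 without control replicate 1, 4 without control replicate 2, 1 without knockout replicate 1 and 12 without knockout replicate 2. The 13 genes at an unadjusted p under 0.05 became 6 without knockout replicate 1 and 8 without control replicate 2.

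**Figure D1:**
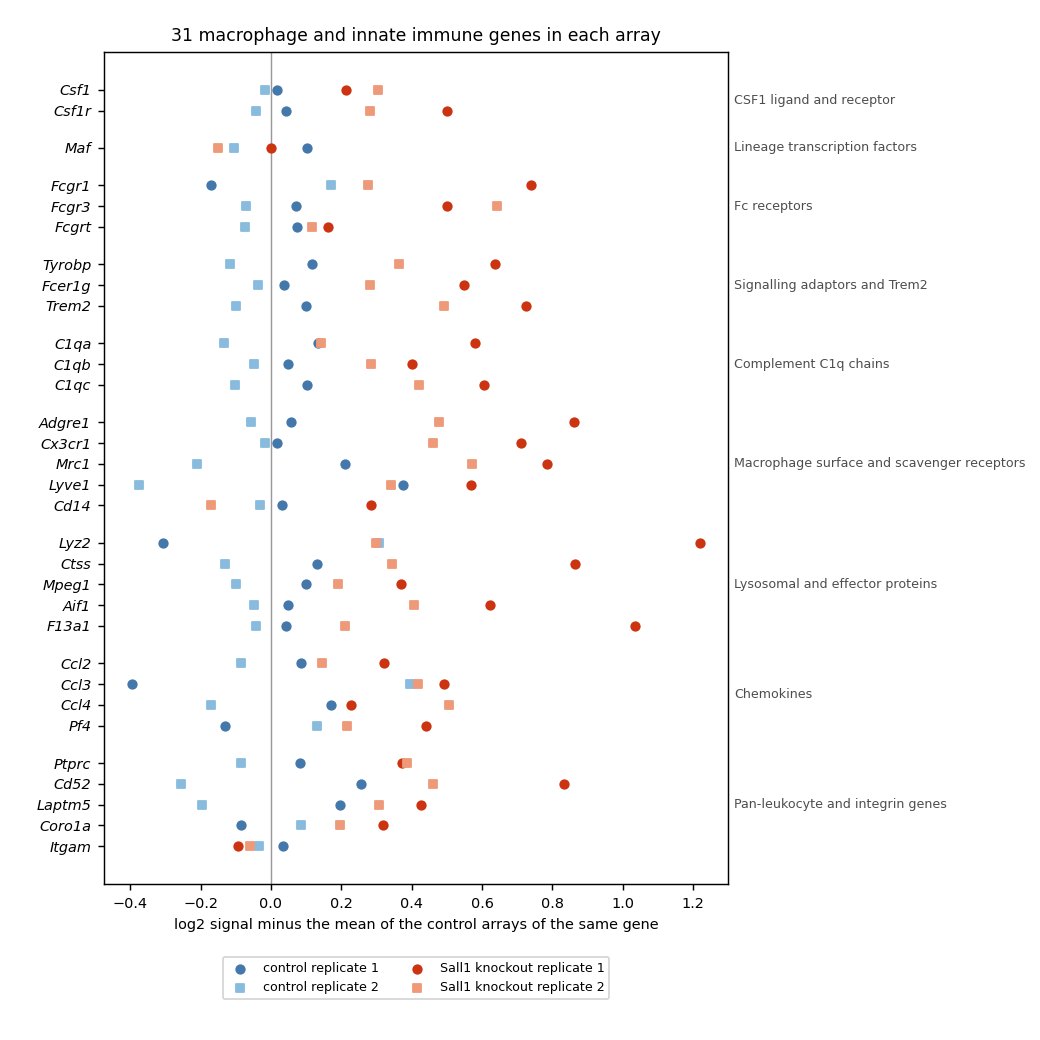
Log2 signal of each of the 31 tested genes on the horizontal axis, minus the mean of the 2 control arrays of that gene, with genes on the vertical axis ordered by role. Blue points are control and red points Sall1 knockout arrays (circle, replicate 1, and square, replicate 2). Knockout replicate 1 lies above knockout replicate 2 for 26 of the 31 genes, and Lyz2 and F13a1 have the widest gap between the knockout arrays.

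The ligand and the receptor that keep macrophages alive were both measured. Csf1, the growth factor, had log2 signals of -1.21 and -1.25 in the controls and -1.02 and -0.93 in the knockouts. Both knockout arrays were above both controls, and the difference was 0.26 ± 0.065 (SE, n = 2 per group, adjusted p = 0.324 in limma). For Csf1r, its receptor and the most widely used marker of the lineage, they were 1.97 and 1.88 in the controls and 2.43 and 2.21 in the knockouts. The groups did not overlap, and Csf1r was 1.31-fold higher (0.39 ± 0.10, SE, adjusted p = 0.329 in limma). A second Csf1r probe differed by 0.55 and the remaining probe by 0.032, the last with overlapping groups, so the probes of this gene disagreed in size. Il34, the other ligand of Csf1r, is among the further macrophage genes below.

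Of the transcription factors of the lineage, 1 of 2 was measured. The probe of Spi1, the gene of PU.1, was not well above background in any sample and was not tested. Maf, a factor of mature macrophages that other tissues also use, had log2 signals of 0.77 and 0.57 in the controls and 0.67 and 0.52 in the knockouts. The groups overlapped (-0.075 ± 0.11, SE).

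Among the Fc receptors, which bind antibodies, Fcgr3 had the smallest unadjusted p of the 31 genes (0.00399). Its log2 signals were -3.43 and -3.57 in the controls and -3.00 and -2.86 in the knockouts. Here knockout replicate 2 was the highest array, and the gene was 1.49-fold higher in the knockout (0.57 ± 0.091, SE, adjusted p = 0.239 in limma). Fcgr1, the high-affinity receptor, gave -3.86 and -3.52 in the controls and -2.95 and -3.41 in the knockouts, so the groups were apart by a narrow margin (0.51 ± 0.22, SE). Fcgrt, the neonatal receptor that carries antibodies across epithelia and is not limited to macrophages, gave 0.46 and 0.32 against 0.55 and 0.51. Its difference of 0.14 ± 0.078 (SE) was smaller than the gap between the controls. Fcgr2b, the inhibitory receptor, was not well above background in any sample.

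The adaptors through which several of these receptors signal differed by similar amounts. Tyrobp, also known as DAP12, had log2 signals of -0.17 and -0.40 in the controls and 0.35 and 0.077 in the knockouts. Fcer1g, the common Fc receptor gamma chain, had 0.13 and 0.056 in the controls and 0.64 and 0.37 in the knockouts. Both genes were above the controls on both knockout arrays, Tyrobp by 1.42-fold (0.50 ± 0.14, SE) and Fcer1g by 1.33-fold (0.41 ± 0.11, SE), with adjusted p of 0.348 and 0.345 in limma. Trem2, a lipid receptor that signals through Tyrobp, had -1.81 and -2.01 in the controls and -1.19 and -1.42 in the knockouts. It was 1.52-fold higher without overlap (0.61 ± 0.12, SE, adjusted p = 0.279 in limma).

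Complement C1q, which tags dying cells for uptake, is built from 3 chains encoded by neighbouring genes. For C1qa the log2 signals were -1.67 and -1.94 in the controls and -1.22 and -1.66 in the knockouts, for C1qb -0.88 and -0.98 against -0.53 and -0.65, and for C1qc -1.01 and -1.22 against -0.51 and -0.69. In all 3 chains the lower knockout array was replicate 2, and for C1qa it came close to control replicate 1. The differences were 0.36 ± 0.19, 0.34 ± 0.077 and 0.51 ± 0.11 (SE), and C1qb and C1qc were among the 13 genes at an unadjusted p under 0.05.

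**Figure D2:**
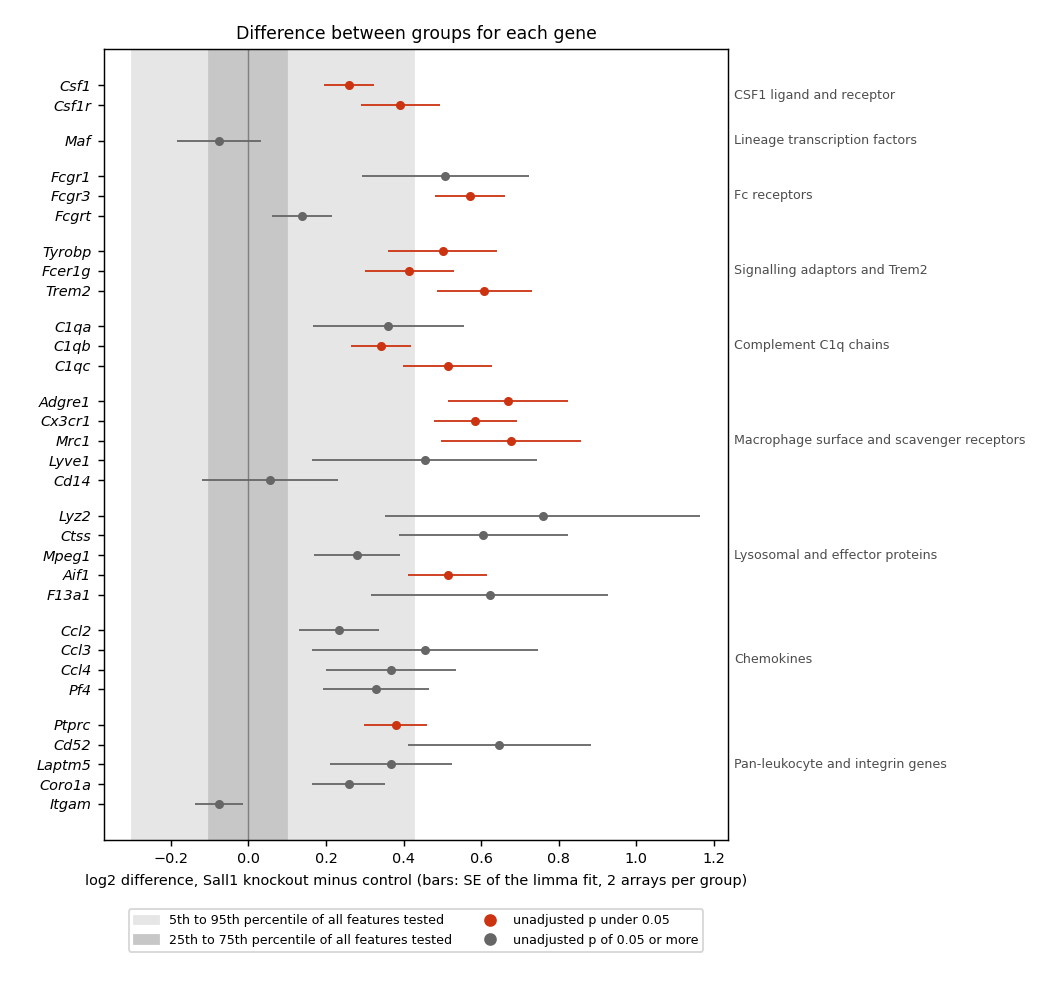
Log2 difference between Sall1 knockout and control for each of the 31 genes, with bars for the SE of the limma fit (2 arrays per group), in red where the unadjusted p was under 0.05. Grey bands hold the 25th to 75th percentile (-0.10 to 0.10) and the 5th to 95th percentile (-0.30 to 0.43) of all features tested. Maf and Itgam lie in the inner band, as does Cd14, and the other 28 genes lie to its right.

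Surface receptors that define macrophages stood at the upper end of the set. Cx3cr1, the fractalkine receptor of tissue macrophages, had log2 signals of -0.28 and -0.32 in the controls and 0.41 and 0.16 in the knockouts. The controls lay close together and both knockouts were above them, by 1.5-fold on average (0.59 ± 0.11, SE, adjusted p = 0.258 in limma). Adgre1, which encodes a surface antigen long used to stain mouse macrophages, had -2.08 and -2.19 against -1.28 and -1.66 and was 1.59-fold higher (0.67 ± 0.16, SE, adjusted p = 0.309 in limma). Mrc1, the mannose receptor CD206, had -1.13 and -1.56 against -0.56 and -0.77 and was 1.60-fold higher (0.68 ± 0.18, SE, adjusted p = 0.337 in limma).

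Other surface genes were less clear. Lyve1, a hyaluronan receptor shared by some macrophages and by lymphatic vessels, gave -2.40 and -3.15 in the controls and -2.21 and -2.44 in the knockouts. Control replicate 1 lay above knockout replicate 2, so the groups overlapped (0.45 ± 0.29, SE). Cd14, the co-receptor for bacterial lipopolysaccharide, gave -3.72 and -3.79 against -3.47 and -3.93, with knockout replicate 2 the lowest array (0.056 ± 0.18, SE). The scavenger receptor Cd163 and Timd4, a receptor for dying cells, both genes of fetal liver macrophages, were not well above background in any sample.

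The genes of lysosomes and effector functions held the widest spread between the knockout arrays. Aif1, a calcium-binding protein also called IBA1, had log2 signals of -0.84 and -0.94 in the controls and -0.27 and -0.48 in the knockouts. It was 1.43-fold higher without overlap (0.51 ± 0.10, SE, adjusted p = 0.276 in limma). Ctss, the protease cathepsin S, had -1.03 and -1.29 against -0.29 and -0.81 (0.61 ± 0.22, SE), and Mpeg1, the pore-forming perforin-2, -1.37 and -1.57 against -1.10 and -1.28 (0.28 ± 0.11, SE). F13a1, a clotting factor subunit made by macrophages, had -1.43 and -1.51 against -0.44 and -1.26. Its mean was 1.54-fold higher, but knockout replicate 2 lay close to the controls, and without knockout replicate 1 the difference was 0.21 in place of 0.62. For Lyz2, the lysozyme of myeloid cells, the values were -4.85 and -4.24 in the controls and -3.33 and -4.25 in the knockouts. Only knockout replicate 1 stood above the controls there, and the largest difference of the set, 0.76 ± 0.41 (SE), rested on it.

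Chemokines and Pf4 had higher means in the knockout, and none was among the 13 genes at an unadjusted p under 0.05. Ccl2, which draws monocytes, had log2 signals of -2.69 and -2.86 in the controls and -2.46 and -2.63 in the knockouts (0.23 ± 0.10, SE). Ccl3, an inflammatory chemokine whose gene neighbours Ccl4, had -4.67 and -3.89 against -3.79 and -3.86. The gap between the Ccl3 controls, 0.79, was larger than the difference between groups, 0.46 ± 0.29 (SE). Ccl4 had -3.86 and -4.20 against -3.80 and -3.52 (0.37 ± 0.17, SE). Pf4, platelet factor 4, which platelets as well as some fetal macrophages make, had 1.04 and 1.30 against 1.61 and 1.39 (0.33 ± 0.14, SE).

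Genes of all leukocytes were mostly higher too. Ptprc, the CD45 phosphatase of leukocytes, had log2 signals of -3.47 and -3.64 in the controls and -3.18 and -3.17 in the knockouts. The knockout arrays were nearly equal and both above the controls, by 1.30-fold (0.38 ± 0.082, SE, adjusted p = 0.293 in limma). Cd52, a small surface glycoprotein, had -0.87 and -1.38 against -0.30 and -0.67 and was 1.57-fold higher (0.65 ± 0.24, SE). Laptm5, a lysosomal membrane protein of blood cells, had -2.63 and -3.02 against -2.40 and -2.52 (0.37 ± 0.16, SE), and its second probe differed by 0.53. Coro1a, an actin regulator, had 0.52 and 0.69 against 0.92 and 0.80 (0.26 ± 0.093, SE). The tetraspanin Cd53 and the integrin Itgax, or CD11c, were not well above background in any sample.

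The probes of Itgam, the CD11b integrin of myeloid cells, disagreed in sign. The probe with the highest mean, which stands for the gene here, had log2 signals of 5.33 and 5.26 in the controls and 5.20 and 5.24 in the knockouts, which places both knockouts slightly below both controls (-0.076 ± 0.061, SE). Of the other probes, the first had -2.98 and -3.04 in the controls and -3.03 and -3.11 in the knockouts, a difference of -0.062. The last had -3.03 and -3.60 in the controls and -3.08 and -3.09 in the knockouts, a difference of 0.23. The groups overlapped in both, and the mean over the 3 probes was 0.030 in place of -0.076. Whether these probes report the same transcript was not tested. Of the other 7 genes with several probes, all used probes had a difference above 0, and so did each of their other probes. Adgre1 differed by 0.67 and 0.25 and Cx3cr1 by 0.59 and 0.42 in their probes. The second probes of F13a1 and Mpeg1 and one further Csf1 probe were not well above background in any sample.

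**Figure D3:**
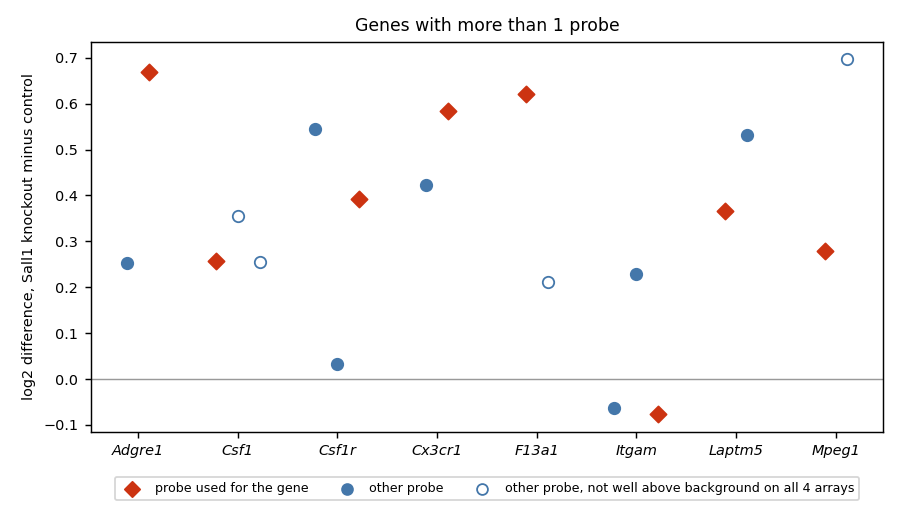
Log2 difference between Sall1 knockout and control (vertical axis) for every probe of the 8 genes with more than 1 probe (horizontal axis). Diamonds are the probes used, filled circles other probes and open circles other probes that were not well above background on all 4 arrays. The probes of Csf1r run from 0.032 to 0.55 and those of Itgam lie on both sides of 0.

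The arrays of a group were not alike for these genes. The median log2 signal of the 31 genes, relative to the control mean of each gene, was 0.072 and -0.072 in control replicates 1 and 2 and 0.50 and 0.30 in knockout replicates 1 and 2. Control replicate 1 was above control replicate 2 for 26 genes, and knockout replicate 1 above knockout replicate 2 for 26 genes. For 9 genes, Maf, Fcgrt, C1qa, Lyve1, Cd14, Lyz2, F13a1, Ccl3 and Laptm5, the wider gap within a group was larger than the difference between the groups. The gap between the knockout arrays was above 0.5 for 3 genes, Lyz2, F13a1 and Ctss.

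Nephron progenitor genes, the markers of the dissected tissue, were lower in the same knockout arrays. Of 15 tested, 12 were lower and 0 higher by unadjusted p (under 0.05), 13 were lower without overlap, and the median difference was -0.51. Their summed level, in multiples of the 75th percentile of the array, was 165 to 171 in the controls and 116 to 126 in the knockouts, and its part in the macrophage genes was not tested.

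Markers of tissues next to the kidney were higher in the same arrays. Of 14 tested liver and gut genes, 14 were higher in both knockout arrays without overlap and 10 at an unadjusted p under 0.05, with a median difference of 1.52. Their summed level was 14.1 to 20.8 in the controls and 41.0 to 44.4 in the knockouts, and Cdx2, a gut factor, was not well above background. Among them Trf, which encodes transferrin, was 2.27-fold and Ttr 3.49-fold higher. Fetal liver is rich in macrophages, and the part of liver tissue in the macrophage genes was not tested. From control replicate 1 to 2 the median change was 0.59 for liver and gut genes and -0.14 for the macrophage genes. From knockout replicate 1 to 2 it was -0.13 and -0.22.

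Skeletal muscle genes had a median difference of 1.18 over 13 tested genes. By unadjusted p (under 0.05) 5 were higher and 1 lower, against 6.77% and 5.93% of all features. At least 1.5-fold without overlap, 10 were higher and 0 lower, against 2.48% and 1.06% of all features. Their summed level was 21.5 to 49.96 in the controls and 60.2 to 88.8 in the knockouts, and Ckm, muscle creatine kinase, was not well above background. From control replicate 1 to 2 the median change was -1.01 for skeletal muscle genes and -0.14 for the macrophage genes. From knockout replicate 1 to 2 it was -0.52 and -0.22. Erythroid genes, which follow the blood left in a tissue, had a median difference of 0.19 over 12 genes, with 0 at an unadjusted p under 0.05 in limma in either direction. They varied widely within each group, with medians of -0.72 and 0.72 in the controls and -0.26 and 0.77 in the knockouts, and summed levels of 1113 to 2066 and 1280 to 2244. The part of muscle or blood in the macrophage genes was not tested.

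**Figure D4:**
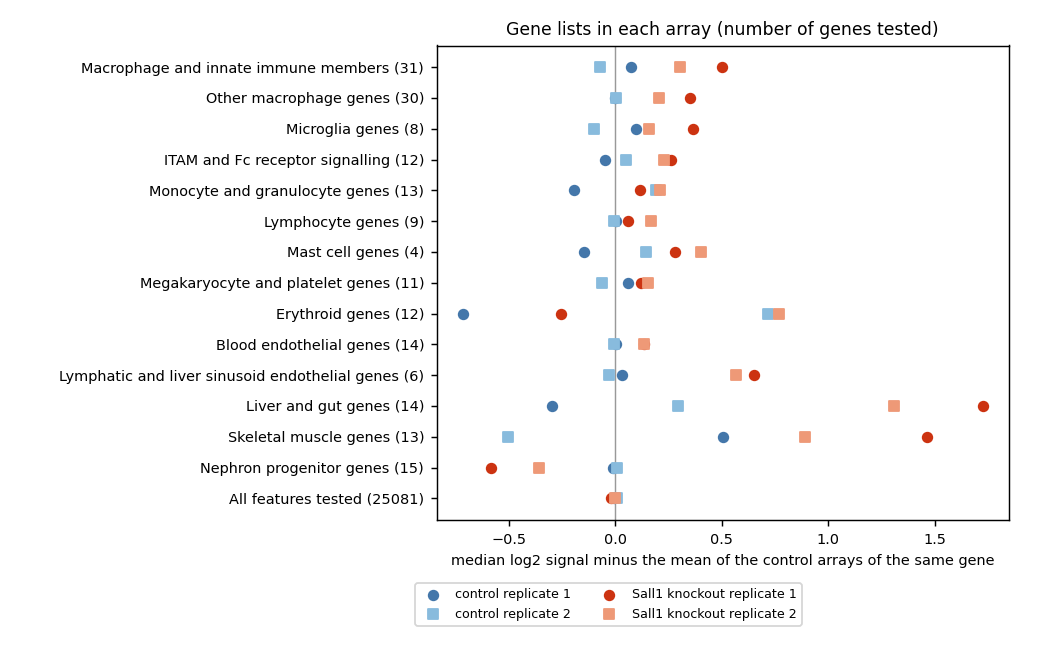
Median log2 signal of each gene list in each array (horizontal axis), relative to the control mean of each gene, with the number of genes tested in parentheses. Blue points are control and red points knockout arrays. The macrophage genes stand at 0.50 and 0.30 in the knockout arrays, liver and gut genes at 1.73 and 1.31, and the erythroid genes are spread widely within each group.

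Medians were lower for other leukocytes, a difference that was not tested. Mast cell genes, given further below, came closest to the 0.41 of the macrophage genes, with a median of 0.34 over 4 tested genes. Monocyte and granulocyte genes had a median of 0.16 over 13 tested genes, with 0 at an unadjusted p under 0.05 in limma in either direction, and summed levels of 10.1 to 10.9 in the controls and 10.8 to 11.1 in the knockouts. Among them Elane, neutrophil elastase, differed by 0.15 ± 0.079 (SE), and the granule genes Ngp, Ltf, Mmp8 and Ms4a3 were not well above background. The sum follows the brightest of the 13 most, Plac8, at 2.65 and 2.66 in the controls and 2.69 and 2.61 in the knockouts. Lymphocyte genes had a median of 0.091 over 9 tested genes, 0 of them at an unadjusted p under 0.05 in limma, with summed levels of 11.3 to 11.8 and 11.9 to 12.3, and Cd3g, Cd8a, Ms4a1 and Rag1 were not well above background. The brightest of the 9 was Cd4, at 2.11 and 2.10 in the controls and 2.14 and 2.27 in the knockouts, and it weighs most in that sum. Megakaryocyte and platelet genes had a median of 0.13 over 11 tested genes, with 1 higher, Gp1ba (1.40-fold), and 1 lower, Vwf (1.31-fold), at an unadjusted p under 0.05, and summed levels of 3.46 to 3.69 and 3.66 to 3.73.

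Further macrophage genes had a median difference of 0.29 over 30 tested of 35 genes, with 11 higher and 1 lower by unadjusted p (under 0.05). Of all features 6.77% were higher and 5.93% lower by this limit, here and for the lists that follow. Cd86, counted among the 11, was well above background on 3 of the 4 arrays, at -5.51 and -4.92 in the controls. Cd83, a surface protein of activated antigen-presenting cells, was 1.40-fold higher, and its log2 signals of 1.49 and 1.63 in the controls and 2.07 and 2.02 in the knockouts did not overlap. Gas6, which bridges dying cells to the receptors Axl and Mertk, was 1.39-fold higher and Apoe, a lipid carrier, 1.35-fold. Mertk was the gene in the other direction, at -0.20 ± 0.060 (SE). Il34 differed by 0.17, with overlapping groups. Vsig4, Siglec1 and Gpnmb, all made by mature macrophages, were not well above background in any sample.

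Kinases and other enzymes that act below Fc receptors and Tyrobp had a median of 0.24 over 12 tested of 15 genes, with 6 higher and 0 lower by unadjusted p (under 0.05). Btk, a kinase of B cells and macrophages, was 1.34-fold, the adaptor Blnk 1.26-fold and the lipid phosphatase Inpp5d 1.24-fold higher. None passed over all features tested. Fgr, Lcp2 and Dock2 were not well above background.

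Of the genes usually listed for microglia, 8 of 10 were tested, with a median of 0.26 and with 2 higher and 0 lower by unadjusted p (under 0.05). P2ry6, a nucleotide receptor, was 1.496-fold higher, and Gpr34, above background on 3 of the 4 arrays, 1.76-fold higher. P2ry12, the receptor most used to define microglia, was not well above background in any sample.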

How the data were processed

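Gene expression was measured in 2 control and 2 Sall1 knockout samples of embryonic kidney. Processed signal intensity was made by the authors with Agilent Feature Extraction 10.7.3.1 (design 028005, built on mm9), background-subtracted and detrended and not scaled across arrays, per the file headers. Intensity in the deposited table agreed within 1% for 100% of single-spot probes, and that table was run as an alternative.

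Control spots and outlier spots (147 to 174 per array) were left out. Intensities were divided by the 75th percentile of the array (597 and 548 in control, 534 and 521 in knockout arrays) and set to log2, and spots of a probe were averaged. Probes were kept where both arrays of at least 1 group were well above background, and the probe with the highest mean stood for its gene. Symbols came from RefSeq accessions matched to GRCm38.p6 (26413 probes matched, 29268 not). Limma 3.58.1 in R 4.3.3 (lmFit, eBayes, two-sided, 2 residual degrees of freedom) was run on 15088 named genes and 9993 unnamed sequences with Benjamini-Hochberg adjustment, and was tested on simulated data. Precision is limited by the number of arrays.

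The genes and lists were chosen with earlier results of these data known. Every measured gene of the set may be named, and of each other list up to 4 genes by unadjusted p, besides genes not well above background. Some genes of these lists are not reported here. Mertk, Il34, Cd86, Plac8, Cd74 and Ciita were named in addition, after their values were seen, as were Cx3cr1 under another prior and the C1qc promoter. Alternatives were leaving out each array, normexp (offset 50, on the median signal), median centring, quantile normalization, the deposited table, keeping outlier spots, averaging the probes of a gene, no filter or a filter on all 4 arrays, array weights, a trended and robust prior, a 2-fold limit and an adjusted p under 0.1.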

Additional observations from a re-analysis of the deposited data

How the results depend on the processing

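The median difference of the macrophage genes stayed above 0 in each of the 14 alternatives run, at 0.28 with normexp correction in place of 0.41 and between 0.30 and 0.50 when an array was left out. With normexp 20 genes were higher at an unadjusted p under 0.05 and 0 reached 1.5-fold without overlap, and median centring left 3 at that limit. Shares of all features at these limits were not taken in the alternatives, including those with an array left out, so such counts are a description only. A 2-fold limit left 0. The prior that follows the signal called 1 gene, Cx3cr1, and 0 were called at an adjusted p under 0.1. Leaving out an array gave 6 to 15 genes higher at an unadjusted p under 0.05 and 1 to 12 at 1.5-fold without overlap, where a lone array stands for a group and is assumed to vary like the others. The sign turned for 3 genes, Maf (0.029 without control replicate 1, and -0.18 to 0.029 over the arrays left out), Cd14 (-0.17 without Sall1 knockout replicate 1, and -0.17 to 0.28 over the arrays left out) and Itgam (0.030 as a mean over probes), and for none of the other 28 tested genes. No paired analysis was possible because the labels share no replicate numbers between the groups. Small differences and dim genes are limited by 2 arrays per group.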

Other observations

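Other innate immune genes, outside the macrophage set, differed in both directions. Among inflammatory cytokines and chemokines 11 of 20 genes were tested, with a median log2 difference of 0.47 and with 4 higher and 1 lower by unadjusted p (under 0.05). Ccl9, a chemokine of myeloid cells, had log2 signals of -3.18 and -3.17 in the controls and -2.21 and -2.44 in the knockouts and was 1.80-fold higher. Ccl5 was 1.97-fold higher and Ccl24, an eosinophil chemokine above background on 3 arrays, 2.41-fold. Arg1, the arginase that some macrophages and the liver make, was the gene in the other direction, at -1.20 and -1.17 in the controls and -1.83 and -1.90 in the knockouts, or 1.60-fold lower. Il1a, Il1b, Il6, Il10 and Tnf were not well above background in any sample. No gene of this or the following lists passed over all features tested. Of all features 6.77% were higher and 5.93% lower by unadjusted p (under 0.05).

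Complement genes other than C1q had a median of 0.30 over 11 tested genes, of which 10 were well above background on all 4 arrays. In all 11 both knockout arrays were above both controls, with 6 at an unadjusted p under 0.05. Cfb, counted in both, was well above background on 3 arrays, at -5.09 and -3.94 in the controls and -2.66 and -2.95 in the knockouts. C3, the central component, was 1.31-fold higher. Liver makes it, and liver and gut genes were higher by a median of 1.52 in the same arrays, whose part was not tested. Interferon response genes had a median of 0.22 over 11 tested genes with 3 higher at an unadjusted p under 0.05, Usp18 (1.37-fold), Rsad2 (1.35-fold) and Bst2 (1.29-fold), while Irf7 and Ifit1 were not well above background. Of 13 tested Toll-like receptor and NF-kB genes, with a median of 0.12, 4 were higher and 0 lower by unadjusted p (under 0.05), led by Tnfaip3 (1.32-fold). Differences were above 0 for 10 of the 13 and below 0 for 3, and they ran from -0.68 to 0.72.

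Antigen presentation genes had a median of 0.083 over 8 tested genes, with 2 higher and 2 lower by unadjusted p (under 0.05). The class II genes H2-Eb1 and H2-Ab1 were 1.58-fold and 1.27-fold lower in the knockout, with log2 signals for H2-Eb1 of -0.16 and -0.28 in the controls and -0.79 and -0.97 in the knockouts. Cd74 and Ciita, also of the class II pathway, differed by -0.065 and 0.075, with overlapping groups. H2-Aa was well above background on 1 array and was not tested. The class I pathway genes Psmb8 and B2m were 1.53-fold and 1.13-fold higher. Among the 4 tested mast cell genes, with a median of 0.34, Hdc, which makes histamine, was 3.13-fold higher (-4.00 and -3.23 against -2.08 and -1.86), while Cma1, Mcpt4, Fcer1a and Ms4a2 were not well above background. Blood endothelial genes had a median of 0.11 over 14 genes with 6 higher at an unadjusted p under 0.05, led by Cldn5 (1.29-fold). Among genes of lymphatic and liver sinusoid endothelium Oit3 was 1.79-fold and Stab2, a scavenger receptor of sinusoids, 1.47-fold higher (median 0.63 over 6 tested genes), and Prox1, the lymphatic master regulator, was not well above background.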
